A study of Mus musculus with 18 samples.

Results

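Formins were followed at the RNA level in mouse bone marrow–derived dendritic cells (DCs) that had been embedded in collagen gels of increasing density or kept in suspension. The 9 genes Diaph1, Diaph2, Diaph3, Fmnl1, Fmnl2, Fmnl3, Daam1, Fhod1, and Inf2 were taken by name from the 29875 genes of the count table. All 9 passed the filter on low counts that left 13844 genes for testing. The 18 libraries comprised 3 replicates of each of 6 groups, namely 2 suspension groups and gels with 1.7, 2.6, 3.5, or 4.4 mg of collagen per ml. Every group held wild-type C57Bl6/J cells from mice of 8 to 12 weeks, grown from bone marrow with GM-CSF supernatant and matured from day 8 with lipopolysaccharide (LPS) at 200 ng/ml for 24 hours. The collagen libraries were labelled as migrating toward the chemokine CCL19, and RNA was taken 5 hours after its gradient was set up. The suspension controls sat in the same chambers without collagen, and 1 group is titled plus CCL19 and the other carries no CCL19 in its title. The library names of these controls give the opposite CCL19 state. Titles name the groups below, and which of them received CCL19 is left unsaid. The titles call the replicates biological, and the paper's legend for these data speaks of at least 3 independent biological replicates. Whether cells of different replicates came from different mice is not given in the sources used here. The p-values therefore measure the spread between these libraries, which may be technical in part.

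Formins are large dimeric proteins that nucleate and elongate unbranched actin filaments with their formin homology 2 domain, while the neighboring formin homology 1 domain feeds in profilin-bound actin. Most of those expressed in leukocytes are held closed by contact between their own ends and opened by upstream signals. Filaments made by formins fill protrusions, the cell cortex, and contractile bundles, in contrast to the branched networks made by the Arp2/3 complex.

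Total counts per library ranged from 13062944 to 28059839. The labelled cell type was checked with 12 DC markers, all of which had counts, and the DC markers H2-Ab1, Cd74, Ccr7, and Zbtb46 were present in every library. The summed DC markers ranged from 32096 to 99841 counts per 1000000 counts of a library (CPM) in suspension and from 43612 to 111186 CPM in collagen. Defining genes of T and NK cells summed to 3.54 CPM or less and those of B cells to 13.7 CPM or less in any library. A date and a sequencing lane are common to the library names of each replicate number, which makes the replicate a batch with 1 library per group, and each comparison was fitted without and with the replicate number as a block. The 4.4 mg/ml replicate 2 library held the lowest Diaph1 and Diaph2 levels of all 18 libraries (351 and 12.0 CPM), and results that lean on it are also given without it.

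The promoters of Inf2 and Fmnl1 are shown because these were the members with lower RNA in collagen. Inf2 (ENSMUSG00000037679) spans chr12:112588784-112615557 and Fmnl1 (ENSMUSG00000055805) spans chr11:103171107-103198901, both on the plus strand in GRCm38. The bases upstream of the transcription start were taken from RefSeq (GRCm38.p6), at chr12:112588517-112588766 for Inf2, which has another RefSeq start a few bases downstream. For Fmnl1 the RefSeq window is chr11:103170888-103171137, and it is printed up to base 103171106, the last before the annotated gene. The letters run 5′ to 3′ on the plus strand in lower case. Capitals mark each match on either strand to the GC box, written GGGCGG, to the box bound by PU.1, a factor of myeloid cells, written GAGGAA, and to the E-box, written CACGTG. The box named CCAAT and the CArG box of serum response factor were searched as well.
Inf2: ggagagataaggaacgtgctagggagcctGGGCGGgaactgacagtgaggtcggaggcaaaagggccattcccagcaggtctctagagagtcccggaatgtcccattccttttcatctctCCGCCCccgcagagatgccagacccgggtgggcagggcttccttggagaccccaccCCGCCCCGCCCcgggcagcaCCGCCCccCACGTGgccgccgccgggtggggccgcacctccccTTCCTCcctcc
Fmnl1: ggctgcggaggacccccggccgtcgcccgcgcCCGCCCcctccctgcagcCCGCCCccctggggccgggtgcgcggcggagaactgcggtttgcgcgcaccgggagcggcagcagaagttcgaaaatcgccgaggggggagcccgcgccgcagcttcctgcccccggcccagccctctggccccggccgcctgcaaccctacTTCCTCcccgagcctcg

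Both windows of 250 bases were rich in G and C, at 68.4% for Inf2 and 79.2% for Fmnl1, against a median of 52.4% over all 32851 promoter windows of this length. Inf2 held 5 matches to the GC box, of which a pair overlapped, 1 PU.1 box, and 1 E-box. Fmnl1 held 1 PU.1 box and 3 GC boxes, of which 2 lie in the printed 219 bases. Over all windows, 32.7% held a GC box, 23.3% a PU.1 box, 6.02% an E-box, 33.8% a CCAAT box, and 1.47% a CArG box. Neither window held a match to the CCAAT or the CArG box. Matches of letters are a description and do not mark bound sites. RefSeq windows were at hand for 8 of the 9 members, and each of these windows exceeded the median of 52.4%. Of the members not printed, Fmnl2 held 77.6% with 3 GC boxes, Fmnl3 65.2% with 4, and Fhod1 63.2% with 3. The windows of Daam1, Diaph2, and Diaph3 held 52.8 to 58.8%, with 0 to 3 GC boxes. A promoter rich in G and C is thus not particular to Inf2 and Fmnl1.

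The formins of these DCs spanned a wide range of levels when counts were divided by exon length. Fmnl1, a formin enriched in blood cells, had the highest mean level over the 18 libraries, at 119 ± 38.2 CPM per kilobase of exon (SD, n = 18). Diaph1 (mDia1), long studied in leukocyte migration, followed at 93.9 ± 24.0 CPM per kilobase, and Inf2, a formin known at the endoplasmic reticulum for its part in mitochondrial fission, at 43.95 ± 22.9 CPM per kilobase. A middle tier held Fmnl2 (10.6 ± 4.32) and Fmnl3 (7.66 ± 4.62), formins of lamellipodia and filopodia that bind Cdc42, together with Fhod1 (10.5 ± 3.51), a target of the kinase ROCK in contractile bundles, all in CPM per kilobase. The lowest tier held Diaph2 (1.92 ± 0.688), known from endosome movement, the Dishevelled-binding Daam1 (1.85 ± 0.703), and Diaph3 (0.669 ± 0.343), known from filopodia and cytokinesis, in the same unit.

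The tiers were separate in nearly every library, but most neighbors within a tier were not. Inf2 exceeded Fmnl2 in 18 of 18 libraries and Fmnl3 exceeded Diaph2 in 17 of 18, while Fmnl2 exceeded Fhod1 in 9 of 18, Fhod1 exceeded Fmnl3 in 11 of 18, and Diaph2 exceeded Daam1 in 10 of 18. Fmnl2 and Fhod1 exchanged places when levels were divided by the longest transcript in place of all exons. At the top, Fmnl1 exceeded Diaph1 in 6 of 6 suspension libraries and in 8 of 12 collagen libraries. Diaph1 exceeded Inf2 in 5 of 6 suspension libraries and in 12 of 12 collagen libraries.

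**Figure D1:**
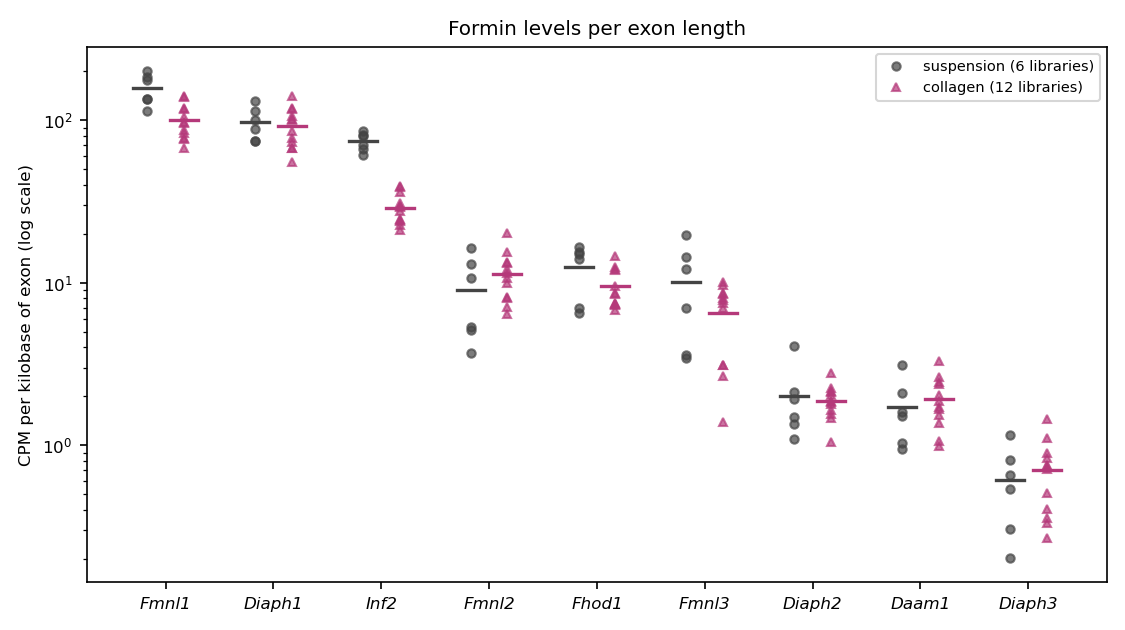
Levels of the 9 formins in CPM per kilobase of exon on a log axis, with 1 point per library (circles, 6 suspension libraries; triangles, 12 collagen libraries) and bars at the group means. The mean of Fmnl1 is 157 in suspension and 101 in collagen and that of Inf2 73.9 and 28.98, and the Inf2 points of collagen and suspension do not overlap.

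The sum of the 9 levels per kilobase had a different makeup in collagen and in suspension. Inf2 made up 17.3 to 24.4% of this sum in the 6 suspension libraries (median 20.5%) and 9.43 to 17.6% in the 12 collagen libraries (median 10.8%). The highest collagen share, 17.6%, came from the 4.4 mg/ml replicate 2 library and lay above the lowest suspension share. Diaph1 made up 22.4 to 32.3% in suspension (median 25.5%) and 27.0 to 47.1% in collagen (median 34.5%). Fmnl1 made up 38.2 to 50.6% and 27.99 to 45.0%, with ranges that overlapped.

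Of 5 further formins that were looked up, Fmn1, Fhod3, and Daam2 passed the filter and none of them was called in collagen against suspension. Fmn1 reached 4.52 to 23.0 CPM, Fhod3 2.79 to 15.8 CPM, and Daam2 0 to 1.44 CPM over the 18 libraries. Their log2 changes were −0.04 for Fmn1 (SE 0.232, adjusted p = 0.932 from the quasi-likelihood test of edgeR), 0.23 for Fhod3 (SE 0.392, adjusted p = 0.754), and 0.13 for Daam2 (SE 0.523, adjusted p = 0.905). Fmn2 and Grid2ip had 2 counts each, in 1 library each, and were not tested.

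The first comparison asks which formins differ between DCs inside a gel and DCs without one, as the mean of the 4 collagen groups against the mean of the 2 suspension groups. Inf2 and Fmnl1 were lower in collagen, and the other 7 members were not called at a false discovery rate (FDR) of 0.1. The call of 2 of 9 members stands beside 20.2% of all 13844 genes called in this comparison in either direction and 12.4% called lower. The median log2 change was −0.08 over the 9 members and 0.00269 over all genes.

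Inf2 fell in collagen. In suspension titled without CCL19 it measured 325, 296, and 392 CPM in replicates 1, 2, and 3, and in suspension titled plus CCL19 390, 342, and 415 CPM. In collagen it measured 135, 191, and 188 CPM at 1.7 mg/ml, 116, 151, and 144 CPM at 2.6 mg/ml, 110, 141, and 119 CPM at 3.5 mg/ml, and 118, 176, and 103 CPM at 4.4 mg/ml. All 12 collagen libraries lay below all 6 suspension libraries, which held for 1 of the 9 members and for 1.52% of the genes tested. The log2 change was −1.36 (SE 0.152, 95% interval −1.68 to −1.04, adjusted p = 0.00018 from edgeR), which is 2.57-fold lower. It was lower in 12 of 12 pairs of a density with the suspension mean of the same replicate. Within replicates 1, 2, and 3 the log2 difference was −1.57, −0.96, and −1.58. Inf2 was called in 11 of 11 alternative analyses, with log2 changes between −1.57 and −1.003 and adjusted p values up to 0.0245.

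Inf2 was also set against Diaph1, whose own change was not called. The ratio of Inf2 to Diaph1 counts within a library ranged from 0.411 to 0.833 in suspension (median 0.633) and from 0.162 to 0.502 in collagen (median 0.245). The highest ratio in collagen, 0.502, belonged to the 4.4 mg/ml replicate 2 library. These ratios do not depend on how libraries were scaled.

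Fmnl1 fell by less. In suspension titled without CCL19 it measured 558, 656, and 896 CPM in replicates 1, 2, and 3, and in suspension titled plus CCL19 656, 975, and 863 CPM. In collagen it measured 514, 676, and 582 CPM at 1.7 mg/ml, 477, 687, and 408 CPM at 2.6 mg/ml, 376, 569, and 468 CPM at 3.5 mg/ml, and 327, 427, and 381 CPM at 4.4 mg/ml. The groups overlapped, since replicate 1 in suspension lay below several replicate 2 libraries in collagen, but within each replicate all 4 collagen libraries lay below the mean of the 2 suspension libraries. The log2 change was −0.66 (SE 0.170, 95% interval −1.02 to −0.30, adjusted p = 0.0178 from edgeR), a level 1.58-fold lower. The call was lost without replicate 2 (−0.77, adjusted p = 0.134) and without replicate 3 (−0.49, adjusted p = 0.218), and the adjusted p ranged from 0.00144 to 0.218 over 11 alternatives. Fits that leave out a replicate hold fewer libraries, and their share of all genes called is not given here or below. With the replicate block and offsets for GC content and length, the change was −0.30 (adjusted p = 0.0867). An annotated antisense gene, Gm20511, shares 120 bases of exon with Fmnl1, which is 2.46% of its exon length, and the strand setting of the authors' counting is not given in the sources used here.

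**Figure D2:**
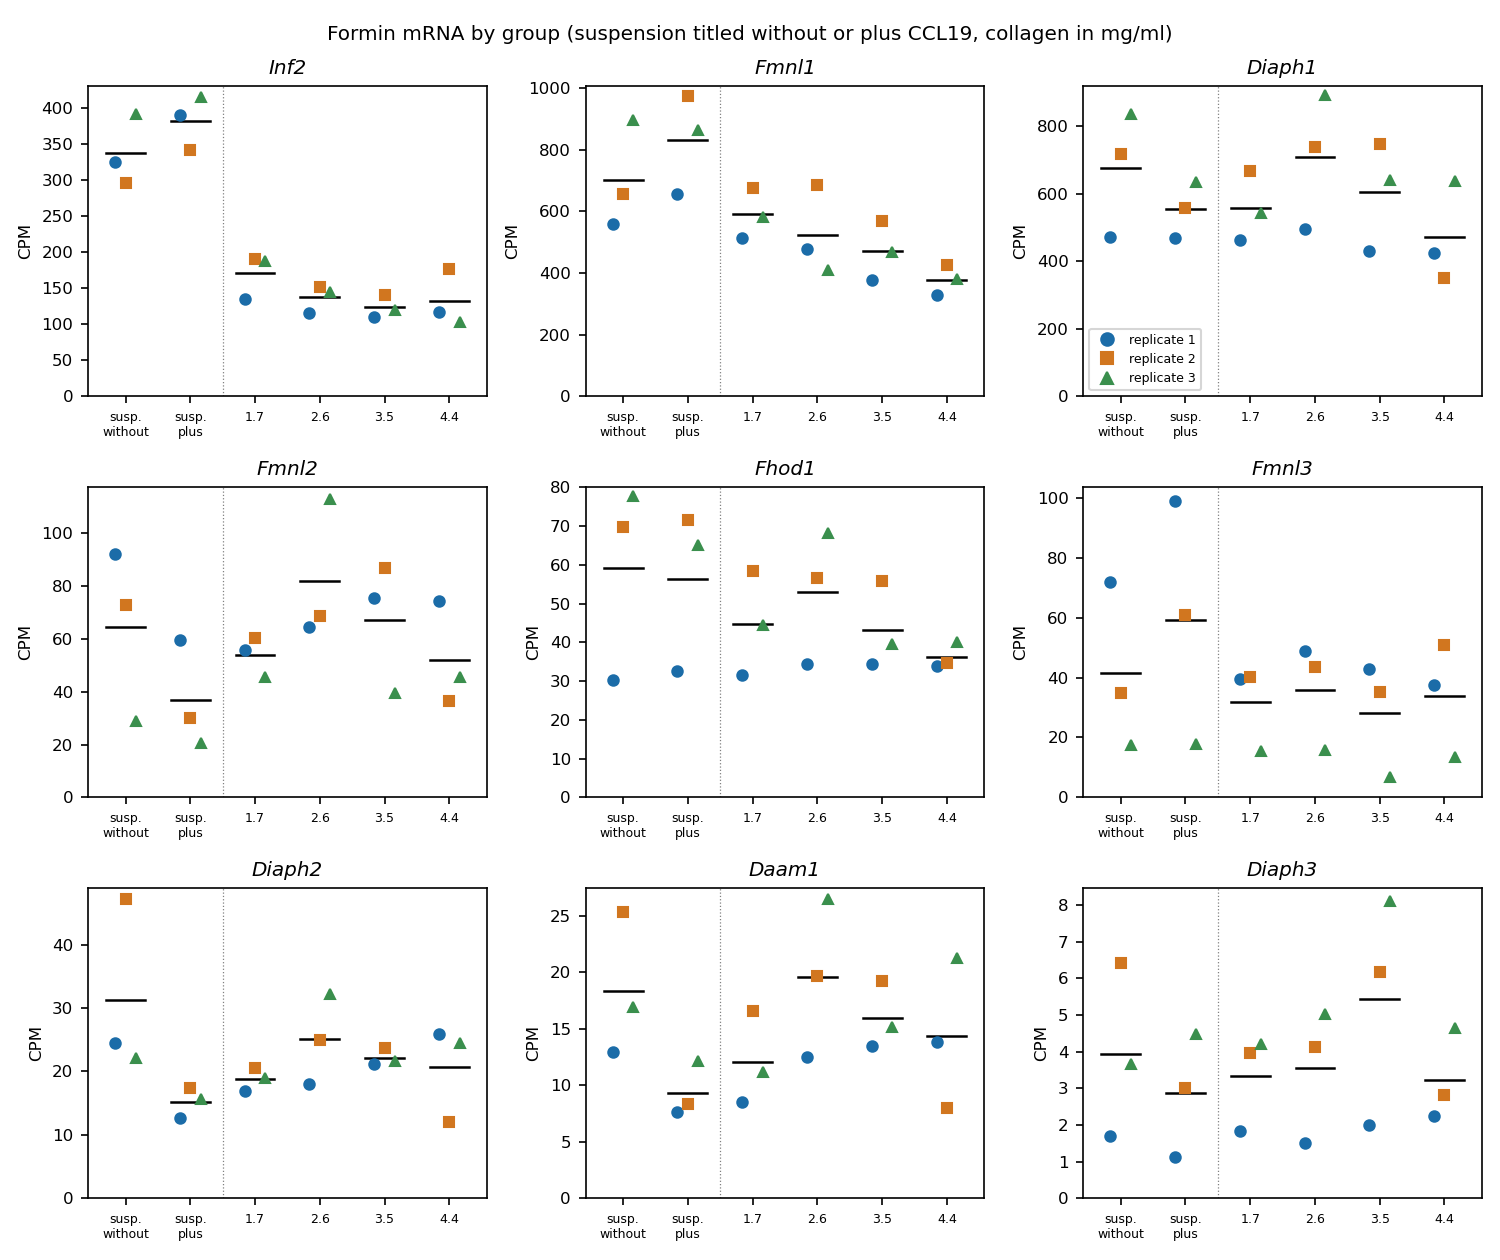
CPM of the 9 formins in the 6 groups on axes that start at 0 and differ between panels, with 1 symbol per replicate, black bars at the group means of 3 libraries, and a dotted line between suspension (left) and collagen (right, density in mg/ml). Inf2 lies between 296 and 415 CPM in suspension and between 103 and 191 CPM in collagen, whereas the suspension and collagen points of every other member overlap.

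Fmnl3 differed strongly between replicates, and its call depended on the fit. In replicate 1 it measured 72.0 and 99.1 CPM in suspension and 37.5 to 48.9 CPM in collagen, and in replicate 3 it measured 17.3 and 17.97 CPM in suspension and 6.92 to 15.7 CPM in collagen. In replicate 2 the values were 34.99 and 60.9 CPM in suspension and 35.3 to 50.8 CPM in collagen, and there they overlapped. The log2 change was −0.62 (SE 0.432, adjusted p = 0.381 from edgeR) without the block and −0.56 (adjusted p = 0.0233) with it, where 34.8% of all genes were called. Without the filter on low counts it was called in the fit without the block as well (−0.66, adjusted p = 0.0780), beside 9.09% of 29875 genes. With GC and length offsets added to the block it was −0.24 (adjusted p = 0.21), where 36.6% of all genes were called, and over 11 alternatives the adjusted p ranged from 0.0111 to 0.876.

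The other 6 members were not called with or without the block. Fhod1 ranged from 30.2 to 77.7 CPM in suspension (median 67.4) and from 31.6 to 68.3 CPM in collagen (median 39.9), with a log2 change of −0.40 (95% interval −0.89 to 0.09). It was lower in collagen in replicates 2 and 3 and not in replicate 1, where suspension measured 30.2 and 32.7 CPM. A neighbor on the opposite strand, Tmem208, shares 116 bases of exon with Fhod1. Diaph1 ranged from 468 to 836 CPM in suspension (median 597) and from 351 to 892 CPM in collagen (median 591), with a log2 change of −0.08 (95% interval −0.50 to 0.34).

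Fmnl2, Daam1, and Diaph3 had positive estimates and Diaph2 an estimate near 0, and all had wide intervals. Fmnl2 ranged from 20.7 to 92.2 CPM in suspension (median 45.0) and from 36.4 to 113 CPM in collagen (median 62.5), with a log2 change of 0.36 (95% interval −0.23 to 0.96). Within replicates 1, 2, and 3 its difference was −0.15, 0.36, and 1.17, so it was positive in 2 of 3. Daam1 ranged from 7.61 to 25.3 CPM in suspension and from 8.02 to 26.5 CPM in collagen, with a log2 change of 0.22 (95% interval −0.30 to 0.74) and a positive difference in 3 of 3 replicates. Diaph3, with 22 to 160 counts per library, had a log2 change of 0.18 (95% interval −0.66 to 1.02). Diaph2 had a log2 change of −0.01 (95% interval −0.46 to 0.43), and its sign turned under several alternatives.

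**Figure D3:**
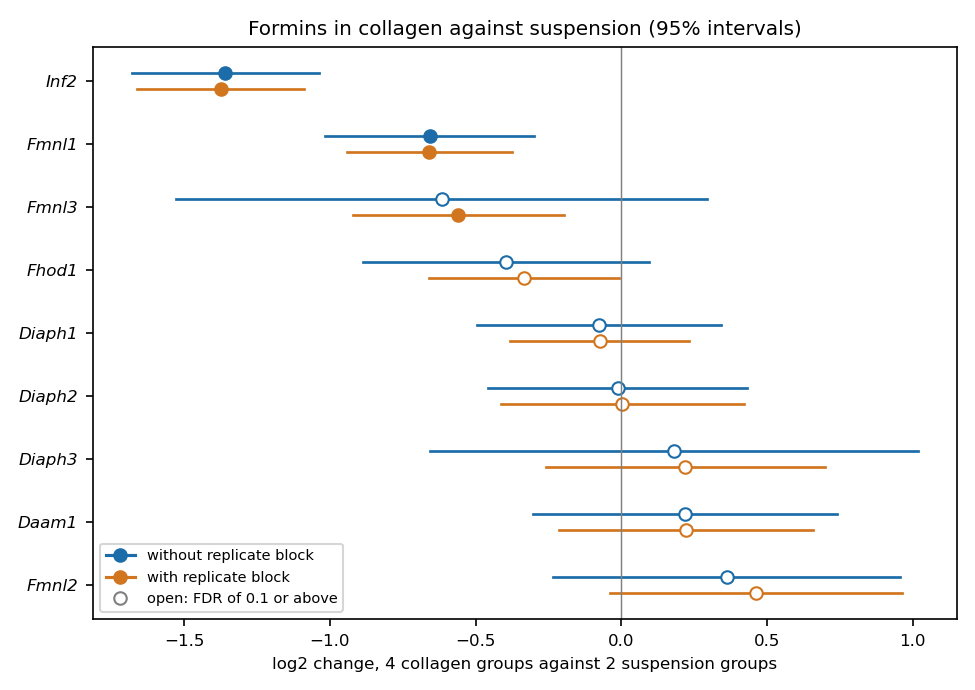
Log2 change of the 9 formins in collagen against suspension with 95% intervals, without (blue) and with (orange) the replicate block, and filled points for an FDR under 0.1. Inf2 (−1.36) and Fmnl1 (−0.66) are filled in both fits and Fmnl3 only with the block, and the other 6 are open in both fits.

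GC content moved with these changes. Tested genes were ordered by the GC content of their longest transcript and split into 4 equal groups. The members Fmnl1, Fmnl3, Fhod1, and Inf2 belong to the top group (54.4% or more), where the median log2 change over 3459 genes was −0.17. Diaph2, Diaph3, and Fmnl2 belong to the bottom group (up to 45.1%), with a median of 0.22. The 4 members with the most negative estimates were the 4 in the top group. With offsets for GC and length beside the block, Inf2 measured −1.003 (SE 0.112, adjusted p = 1.34e-05) and Fhod1 0.00940 (adjusted p = 0.977). The part of GC content in these results was not tested beyond these offsets.

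Markers of other myeloid cells moved as well. All 8 eosinophil markers tested were lower in collagen, and the 9 on the list, none of them at 0 in either condition, summed to 120 to 1364 CPM in suspension and 14.7 to 169 CPM in collagen. Of 11 neutrophil markers 3 were lower (Ly6g, Cxcr2, and Retnlg), none was at 0, and their sum ranged from 782 to 10065 CPM in suspension and from 1186 to 5403 CPM in collagen. None of 8 macrophage markers was called without the block, and their sum ranged from 352 to 1973 CPM in suspension and from 327 to 2225 CPM in collagen. With the block 5 of these 8 were called higher, with a list median of 0.75, and with GC and length offsets beside the block 6 were. Of 6 basophil and mast cell markers tested, none was called without the block, 1 was lower with it, and 4 were lower with the block and the offsets. The part of these cells in the changes of Inf2 and Fmnl1 was not tested. In these bulk libraries fewer cells of a type and less RNA per cell cannot be told apart. Of the 12 DC markers, Cd80 was higher, Flt3 was lower, and 10 were not called without the block. With the block 2 were higher and 1 was lower, and with the block and the offsets 5 were higher and 1 was lower. In these fits 34.8% and 36.6% of all genes were called.

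Each density was next set against suspension, with the same 6 suspension libraries in all 4 comparisons. Inf2 was called at every density above 1.7 mg/ml, and Fmnl1 at 4.4 mg/ml. The estimates for Inf2 were −1.07 (SE 0.234) at 1.7 mg/ml, −1.39 (SE 0.238) at 2.6 mg/ml, −1.54 (SE 0.240) at 3.5 mg/ml, and −1.44 (SE 0.239) at 4.4 mg/ml on the log2 scale. Inf2 missed the threshold at 1.7 mg/ml (adjusted p = 0.249 from edgeR), where 0 of 9 members and 0.0361% of all genes were called. At an unadjusted p under 0.05 Inf2 was the only member there, beside 8.04% of all genes. With the block it passed (adjusted p = 0.0263), where 2.91% of all genes were called, as it did with DESeq2 (adjusted p = 0.00325), where 1.02% were called, and with the block and the offsets (−0.80, adjusted p = 0.0233), where 3.78% were called.

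At 2.6 mg/ml, 1 of 9 members was called beside 7.87% of all genes. With the block, where 21.6% were called, Fmnl1 (−0.55, adjusted p = 0.0741) and Fmnl2 (0.94, adjusted p = 0.0625) passed besides Inf2. The difference in Fmnl2 was largest in replicate 3, which measured 113 CPM at this density and 28.9 and 20.7 CPM in suspension. With GC and length offsets beside the block, where 24.4% were called, Fmnl1 was not called (−0.26, adjusted p = 0.375) and Fmnl2 was (0.68, adjusted p = 0.0483). Inf2 itself lost its call at this density without replicate 2 (−1.54, adjusted p = 0.291) and without replicate 3 (−1.33, adjusted p = 0.189).

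At 3.5 mg/ml, 1 of 9 members was called beside 4.9% of all genes. Inf2 lost this call without any 1 of the replicates (log2 changes between −1.72 and −1.42, adjusted p between 0.146 and 0.346). With the block Fmnl1 (−0.71, adjusted p = 0.0309) and Fmnl3 (−0.89, adjusted p = 0.0346) passed too, and Fmnl3 in replicate 3 had its lowest value of all libraries here, at 6.92 CPM. With the block 18.4% of all genes were called. With the offsets as well neither Fmnl1 (−0.18, adjusted p = 0.569) nor Fmnl3 (−0.43, adjusted p = 0.190) was called, beside 17.2% of all genes. DESeq2 also called Fmnl1 here (adjusted p = 0.0842), beside 9.7% of all genes.

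At 4.4 mg/ml, Inf2 and Fmnl1 were called beside 14.8% of all genes. Fmnl1 was 2.02-fold lower than in suspension (log2 change −1.01, SE 0.258, adjusted p = 0.0212 from edgeR), and it missed the threshold without any 1 of the replicates (log2 changes between −1.07 and −0.90, adjusted p between 0.1 and 0.226). Without the 4.4 mg/ml replicate 2 library, Inf2 (−1.70, adjusted p = 0.00297) and Fmnl1 (−1.11, adjusted p = 0.0449) were both called, beside 10.1% of all genes. Fhod1 was called here with the block (−0.57, adjusted p = 0.0778), where 31.9% of all genes were called. That call was lost with the block when the 4.4 mg/ml replicate 2 library was left out (−0.38, adjusted p = 0.300), beside 25.1% of genes, and with the block and the offsets (−0.23, adjusted p = 0.534), beside 34.3%. Fhod1 in replicate 1 measured 33.8 CPM at this density, above both suspension libraries of that replicate.

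**Figure D4:**
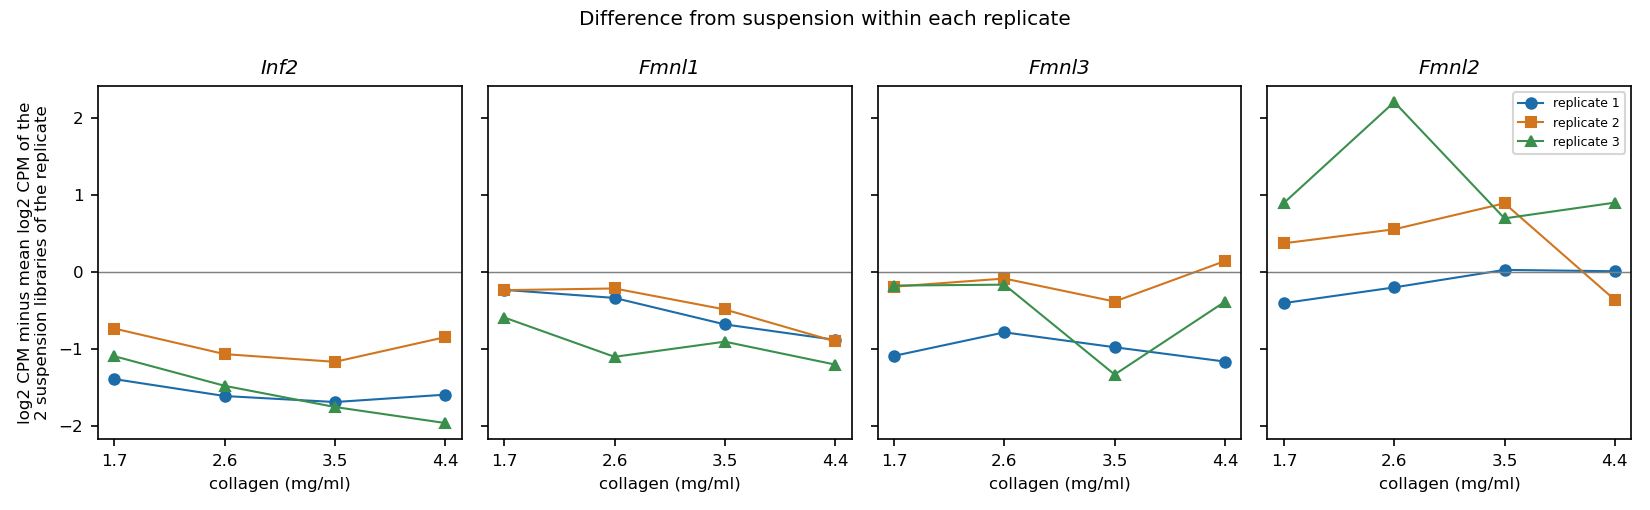
Log2 CPM of Inf2, Fmnl1, Fmnl3, and Fmnl2 at each collagen density minus the mean of the 2 suspension libraries of the same replicate, with 1 line per replicate and a gray line at 0. All 12 points of Inf2 (−0.74 to −1.97) and of Fmnl1 (−0.22 to −1.21) lie below 0, 11 of 12 do for Fmnl3, and Fmnl2 ranges from −0.41 to 2.20.

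The question of whether formins change with density inside the gel was put to the slope over the 4 densities and to the 2 ends of the series. No member was called in either test, where edgeR called 1 gene each (0.00722%). DESeq2 called no member in either test, beside 0.881% of all genes in the trend and 1.06% between the ends. At an unadjusted p under 0.05 from edgeR, Fmnl1 was the only member in both tests, beside 7.2% of all genes in the trend and 7.66% between the ends. For each mg/ml of collagen its log2 level changed by −0.23 (SE 0.100, adjusted p = 0.622 from edgeR). Its group means were 591 ± 81.8, 524 ± 145, 471 ± 96.3, and 378 ± 49.7 CPM (SD, n = 3) from the loosest to the densest gel. Between 4.4 and 1.7 mg/ml it differed by −0.64 (95% interval −1.24 to −0.04, adjusted p = 0.609). With the block the adjusted p of Fmnl1 was 0.185 in the trend, where 1.45% of all genes were called, and 0.184 between the ends, where 1.73% were called. The ratio of Fmnl1 to Diaph1 counts averaged 1.06 ± 0.0483 at 1.7 mg/ml and 0.784 ± 0.283 at 2.6 mg/ml (SD, n = 3). It averaged 0.789 ± 0.0771 at 3.5 mg/ml and 0.861 ± 0.318 at 4.4 mg/ml, so it did not fall at each step. The highest value at 4.4 mg/ml, 1.21, was that of replicate 2.

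Inf2 had a slope of −0.14 per mg/ml (95% interval −0.33 to 0.05, adjusted p = 0.855 from edgeR), with group means of 171 ± 31.4, 137 ± 18.7, 124 ± 16.1, and 132 ± 38.8 CPM (SD, n = 3). Its values at 4.4 mg/ml ran from 103 to 176 CPM and covered the range of the 2.6 and 3.5 mg/ml groups. Without the 4.4 mg/ml replicate 2 library its slope was −0.23 per mg/ml (adjusted p = 0.749). The slopes of the other 7 members lay between −0.14 (Fhod1) and 0.05 (Diaph3), and the interval for Diaph3 (−0.43 to 0.53) was among the widest.

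The 2 suspension groups were compared with each other as titled. No member was called and neither was any other gene, by edgeR without or with the block or by DESeq2. At an unadjusted p under 0.05 edgeR counted Diaph2, Daam1, and 6.18% of all genes. Diaph2 measured 24.5, 47.2, and 22.1 CPM without CCL19 in the title and 12.7, 17.3, and 15.6 CPM with it, and the groups did not overlap. The log2 difference, titled plus minus titled without, was −1.04 (SE 0.345, adjusted p = 0.761). Daam1 measured 12.9, 25.3, and 16.9 CPM without CCL19 in the title and 7.61, 8.30, and 12.2 CPM with it, again with no overlap, and its log2 difference was −0.97 (SE 0.404, adjusted p = 0.761). With GC and length offsets beside the block these differences were −0.35 for Diaph2 (adjusted p = 0.657) and −0.59 for Daam1 (adjusted p = 0.553). Such a separation in this direction held for 2 of 9 members and for 8.13% of all genes. Inf2 and Fmnl1 differed by 0.18 (95% interval −0.36 to 0.72) and 0.24 (95% interval −0.36 to 0.84) between these groups. Over any difference among the 6 groups, Inf2 was the only member called (adjusted p = 0.00701 from edgeR), beside 4.9% of all genes, and with the block Fmnl1 was called too (adjusted p = 0.0166), beside 24.3%. DESeq2 called both as well, beside 14.6% of all genes.

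The partners of formins and the genes downstream of actin assembly were then read from lists of known members. Among 18 formin partners tested of 20 listed, 1 was lower and 1 higher, beside 20.2% of all genes called. Nckipsd, which binds Diaph formins and the Arp2/3 complex, fell by 1.46 on the log2 scale (SE 0.176, adjusted p = 0.000225 from edgeR), from 45.5 to 92.1 CPM in suspension to 19.0 to 40.2 CPM in collagen, without overlap. Trip10, a membrane-bending effector of Cdc42, rose by 0.63 (SE 0.187, adjusted p = 0.0345), with 40.8 to 92.6 CPM in suspension and 81.7 to 138 CPM in collagen. With the block Fnbp1 (−0.41) and Fnbp1l (0.71) were also called, in opposite directions, beside 34.8% of all genes. With GC and length offsets beside the block 5 partners were higher (Trip10, Dvl1, Dvl2, Rock2, and Fnbp1l) and 1, Nckipsd, was lower. In that fit 36.6% of all genes were called. The counts are therefore not read as particular to formin partners. Of 5 actin and profilin genes Actg1 was higher (1.1995, SE 0.257, adjusted p = 0.00634) and Actb, Pfn1, Pfn2, and Cfl1 were not called. Actg1 was counted at only 1.57 to 3.55 CPM in suspension and 3.90 to 15.6 CPM in collagen. Reads of Actg1 also match near-identical copies elsewhere in the genome, and how such reads were counted is not given in the sources used here, so its value is uncertain.

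Actin assembly by formins depletes monomers and so frees myocardin-related transcription factors to act with serum response factor, as background. Both of these cofactors were lower in collagen. Mrtfa fell by 0.89 on the log2 scale (SE 0.130, adjusted p = 0.000746 from edgeR), from 228 to 451 CPM in suspension to 144 to 210 CPM in collagen, and Mrtfb fell by 0.97 (SE 0.283, adjusted p = 0.0324), from 12.2 to 49.4 CPM to 5.89 to 28.1 CPM. Srf was not called without the block or with it. Over the 3 factors the median log2 change was −0.89 without the block, −0.85 with it, and −0.47 with GC and length offsets as well. In each of these fits 2 of 3 factors were called lower. Of all genes, 20.2%, 34.8%, and 36.6% were called in them. Of 13 targets tested, Actg1 was higher and 12 were not called, with a list median of −0.04. With the block Flna (−0.74, adjusted p = 0.0034) and Myl9 (−1.61, adjusted p = 0.0692) were called lower, and with GC and length offsets as well Zyx, Srf, and Tpm1 were called higher and Flna was not called.

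**Figure D5:**
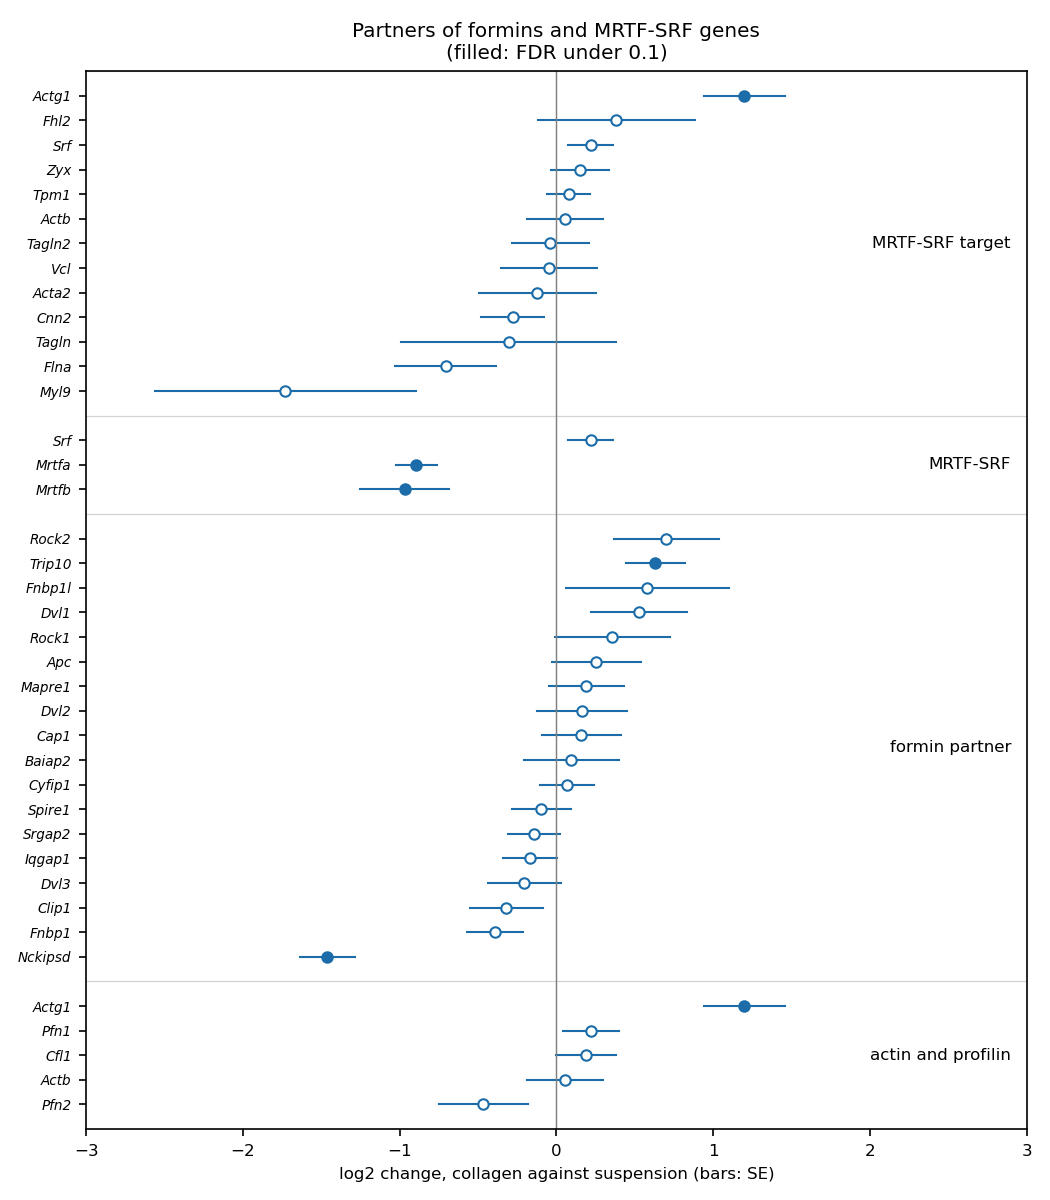
Log2 change in collagen against suspension, with SE as bars, for the tested genes of 4 lists (actin and profilin, formin partners, the 3 MRTF-SRF factors, and 13 MRTF-SRF targets), and filled points for an FDR under 0.1. Nckipsd (−1.46), Mrtfa (−0.89), and Mrtfb (−0.97) are filled below 0, and Actg1 (1.1995) and Trip10 (0.63) above it, with Actb, Actg1, and Srf shown in 2 lists each.

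The genes most like the called members were taken from 8947 tested genes with a mean of at least 5 CPM, by Pearson's r of log2 CPM centered within each replicate over the 18 libraries, as a description. For Inf2 these were Nipal3 (r = 0.971), Rpap1 (r = 0.969), and Crtc1 (r = 0.968). For Fmnl1 they were Zmiz2 (r = 0.969), Tor4a (r = 0.964), and Hdgfl2 (r = 0.962). The points share the same libraries and the collagen and suspension libraries form separate groups, which alone gives a high r to genes with a large difference between them. The log2 changes of these 6 genes in collagen against suspension lay between −1.35 (Rpap1) and −0.94 (Hdgfl2). Between the members themselves r ran from −0.834 for Diaph3 and Fmnl3 to 0.888 for Diaph2 and Daam1, and it was 0.833 for Inf2 and Fmnl1.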

How the data were processed

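RNA of 18 libraries was sequenced with a stranded mRNA kit as single-end reads of 50 bases. The authors aligned reads to GRCm38, with STAR 2.7.0f per their processing notes, and deposited a matrix of unnormalized integer counts, 1 row per Ensembl gene. The study's methods name RSEM for TPM values, which were not used here, and the tool behind the deposited counts is not given in the sources used here. Replicate numbers came from the titles and densities from the labels.

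Counts were tested in R 4.3.3 with edgeR 4.0.16 (filterByExpr, TMM, quasi-likelihood test) in 1 fit of 6 group means over all 18 libraries. P-values were adjusted with the Benjamini-Hochberg method over the 13844 genes tested, with calls made at an FDR of 0.1, the threshold of the study's methods. Standard errors were derived from F. Library sizes scaled by TMM gave CPM, log2 CPM a prior count of 2, and levels per kilobase the union of annotated exons (GENCODE, GRCm38). Alternatives were DESeq2 1.42.0 and its size factors, a replicate block, GC and length offsets (loess span of 0.5, for 99.93% of genes), no filter, an FDR of 0.05, and omission of replicates or of the 4.4 mg/ml replicate 2 library. Omitting that library together with the block was chosen after seeing the data. The fit without the block was tested on simulated data, with the spread of all 18 libraries taken as 1 group. For collagen against suspension it called 24 of 100 genes simulated at a log2 change of 1 and 79 of 100 at 2. For the density trend it called 46 and 89 of 100 genes, at median slope estimates of 0.76 and 1.55 per mg/ml. Unchanged genes called numbered 7 and 10 in these 2 tests. A member that was not called may therefore still differ.

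To check the pairing, deviations from the group means were correlated between libraries over genes. The mean r was 0.434 over 45 pairs of libraries with the same replicate number and −0.214 over 90 pairs with different numbers. Deviations within a group sum to 0, so the negative value follows from the positive one and is no separate support for the pairing. The pairing rests on the shared date and lane in the library names.

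Named were all members, the 5 further formins looked up, and the 3 most similar genes per called member. Up to 3 genes per list called without the block were named, those with the smallest p. Some genes called only with the block or the offsets are named too. Members and lists were chosen with earlier results of these data known. A count of 3 corresponds to 0.107 to 0.23 per 1000000 total counts before scaling by TMM, which covers counting error only. No pair of libraries held identical counts. Lists of upstream regulators are not reported here.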

Additional observations from a re-analysis of the deposited data

Results flagged for a closer look

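In the 6 suspension libraries, Diaph2 in the replicate 2 library titled without CCL19 stood apart from the others, at 47.2 CPM against 12.7 to 24.5 CPM. Its gap to the next library was 0.658 of the whole range, above Dixon's critical value for 6 libraries. Chance flags about 1 in 20 groups, and 9 members were examined in this way. The comparison of collagen with suspension for Diaph2 was not called with any library set used here.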

How the results depend on the processing

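Inf2 in collagen against suspension kept its call in 11 of 11 alternatives. The counts of members called over the slope, between the ends of the density series, and between the suspension groups were 0 in each. With the replicate block, the gels of 1.7, 2.6, and 3.5 mg/ml gave 1, 3, and 3 members called and any difference gave 2. Beside these, 2.91%, 21.6%, 18.4%, and 24.3% of all genes were called. With the 4.4 mg/ml replicate 2 library left out too the counts of members were 1, 4, 3, and 5. That fit added Daam1 at 2.6 mg/ml and Daam1, Diaph2, and Fmnl3 in any difference. Its shares of all genes in these comparisons are not given here, so its counts are not read as a result about formins. GC and length offsets beside the block gave 1 member at 1.7 mg/ml and 2 at 2.6 mg/ml. DESeq2 called 1 at 1.7 mg/ml, 2 at 3.5 mg/ml, and 2 in any difference. Leaving out replicates 1, 2, or 3 left fewer samples in each fit. It gave counts of members called of 1 to 2 over all collagen and 0 to 2 at 2.6 mg/ml. The counts were 0 to 0 at 3.5, 1 to 1 at 4.4, and 0 to 0 in any difference. The share of all genes called in these smaller fits is not given here. A lost call in them is therefore not read as particular to a member.

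The sign of uncalled changes between collagen and suspension turned in 8 cases. Diaph2 was 0.0187 with DESeq2 size factors, 0.0197 with DESeq2, 0.00337 with the replicate block, 0.29 without replicate 2 (−0.18 at the other end of the range), 0.05 when the 4.4 mg/ml replicate 2 library was dropped, and 0.11 when it was dropped with the block in the fit. With the block and the offsets, Diaph1 was 0.18 and Fhod1 0.00940. The cause was not tested. The replicate block changed no call of a member other than those given here and in the results. Diaph3, at 22 to 160 counts per library, was measured with the least depth.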
